A study of Mus musculus with 8 samples.

Results

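The cytochrome P450 genes of the mouse array, other than 9 of them, are described here across the livers of a resection study. The members are the genes with a single symbol made of Cyp, digits, 1 letter and digits. The 9 left out are Cyp7a1, Cyp7b1, Cyp8b1, Cyp27a1, Cyp4a10, Cyp4a14, Cyp2b10, Cyp2c37 and Cyp3a11. The rule took 62 of the 18193 genes with a symbol, read by 79 of 45101 probe sets, and 61 of the 62 had enough signal to be tested, out of 17790 genes tested in all. Cyp3a16 was the one under the minimum.

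RNA of BALB/c mouse livers was hybridised to 8 Affymetrix Mouse 430 2.0 arrays, 2 in each of 4 groups, and each array held the pooled RNA of 3 mice. All mice were 8 weeks old and had received a recombinant adenovirus by the penile vein 5 days before a 78% liver resection, so the controls carry a virus and a foreign protein too. The virus expressed A20, an inhibitor of NF-κB signalling that edits ubiquitin chains, or β-galactosidase (βgal), the control transgene. The pre-βgal and pre-A20 groups are the lobes taken at the resection, and the post-βgal and post-A20 groups are the remnant lobes 24 h later. By the labels the virus reaches 30% to 40% of hepatocytes, so each sample mixes transduced with untransduced cells. The A20 transgene is human, and no probe on this array was used to check it. The treatment text of the post-A20 records repeats the βgal wording, while their titles, tissue and descriptions say A20. Groups before and after resection also differ in the lobes sampled and in 24 h of time after surgery, which cannot be told apart from the resection itself.

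Cytochromes P450 are haem enzymes that insert an oxygen atom into lipophilic molecules, and most of those in hepatocytes sit in the endoplasmic reticulum and take electrons from P450 reductase. Families 1 to 3 mainly oxidise drugs, toxins and steroids, family 4 hydroxylates fatty acids and leukotrienes, and the higher families make or break down steroid hormones, vitamin D, retinoic acid and sterols. In the liver many of them are restricted to hepatocytes around the central vein, several differ between the sexes, and inflammatory cytokines are known to lower their transcripts.

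Promoters are shown because the abundant hepatic P450 genes are known targets of hepatocyte nuclear receptors, and because many of them moved the same way. RefSeq start sites of GRCm38.p6 were given for 46 members, of which 45 were tested, and for 10 of the 15 members that passed the test in any comparison. Windows of 300 bases, from 250 before to 50 after the start, were searched on both strands for 7 words. The word CAAAGNNCA, a common form of the hepatocyte nuclear factor 4 (HNF4) element, occurred in 13 of the 45 members (28.9%), and in 14 of their 52 promoters (26.9%), against 6.36% of all 32851 promoters. TATAAA, the TATA box, occurred in 34.6% of the members' promoters against 13.6% of all. The words for C/EBP (TTNNGNAA, 48.1% against 40.7%), STAT (TTCNNNGAA, 5.77% against 8.3%), the xenobiotic response element (GCGTG, 25% against 32.4%), HNF1 (GTTAATNA, 1.92% against 2.54%) and the D-box bound by Dbp (TTATGTAA, none of the 52 against 0.938%) were nearer to the share of all promoters. Members of a subfamily share descent, so their promoters are not independent.

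The HNF4 word lay on the gene's own strand, within 100 bases before the start, in 8 of the 13 members: Cyp2a12, Cyp2c50, Cyp2c68, Cyp2c70, Cyp2d10, Cyp2d26, Cyp2d9 and Cyp3a44. Its first base lay 50 to 95 bases before the start. The 150 bases before the start are printed for the 5 of these that passed the test. Beside them stands Cyp2b9, which was lower with A20 before resection and holds none of the marked words in this stretch. Cyp1a2, Cyp4f15, Cyp4f16 and Cyp4v3 also passed a test, lack the HNF4 word too and are not printed. Of them, Cyp4f15 was higher and Cyp4f16 lower with A20 on average. Cyp1a2, Cyp4f15 and Cyp4v3 were lower with resection on average. Capitals mark CAAAGNNCA, TATAAA on either strand and, in Cyp2d26, the HNF1 word. The stretches lie at chr7:27028940-27029089 on the plus strand (Cyp2a12), chr19:40089529-40089678 on the plus strand (Cyp2c50), chr19:39741102-39741251 on the minus strand (Cyp2c68), chr15:82794246-82794395 on the minus strand (Cyp2d26), chr15:82452227-82452376 on the plus strand (Cyp2d9) and chr7:26173259-26173408 on the plus strand (Cyp2b9), and each is written 5′ to 3′ on the strand of its gene.
Cyp2a12: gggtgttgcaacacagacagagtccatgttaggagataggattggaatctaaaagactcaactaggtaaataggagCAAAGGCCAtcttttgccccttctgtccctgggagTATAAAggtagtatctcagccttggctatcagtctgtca
Cyp2c50: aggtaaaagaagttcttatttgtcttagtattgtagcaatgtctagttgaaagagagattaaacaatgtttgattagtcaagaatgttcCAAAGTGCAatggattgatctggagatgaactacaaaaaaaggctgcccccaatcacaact
Cyp2c68: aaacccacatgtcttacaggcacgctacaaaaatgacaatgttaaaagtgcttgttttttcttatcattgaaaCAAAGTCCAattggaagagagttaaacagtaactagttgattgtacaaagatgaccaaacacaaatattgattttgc
Cyp2d26: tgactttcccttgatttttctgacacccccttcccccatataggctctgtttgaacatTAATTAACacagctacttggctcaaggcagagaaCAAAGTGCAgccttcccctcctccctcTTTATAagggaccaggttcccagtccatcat
Cyp2d9: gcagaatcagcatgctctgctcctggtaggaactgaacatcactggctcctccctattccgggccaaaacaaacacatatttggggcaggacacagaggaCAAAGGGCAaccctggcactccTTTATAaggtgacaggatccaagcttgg
Cyp2b9: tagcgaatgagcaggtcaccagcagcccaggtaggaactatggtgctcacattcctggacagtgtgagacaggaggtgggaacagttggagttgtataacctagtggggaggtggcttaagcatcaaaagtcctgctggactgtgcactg

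The 13 members with the HNF4 word had a median log2 difference of −0.44 after resection, averaged over both transgenes, and all 13 were below 0. The 32 members with a promoter but without the word had a median of −0.20, with 24 of 32 below 0. For A20 against βgal, averaged over both times, the medians were 0.29 with the word and 0.06 without it. Before resection they were 0.42 and −0.004, and after it 0.22 and 0.16. Several members with the word, Cyp2a12, Cyp2c70 and Cyp2d9 among them, had a mean signal over 1000. All 20 members of that signal were below 0 with resection on average, so word and signal were not told apart. The medians describe a stretch of letters and are given without a test.

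Across the arrays the median signal was 153 to 166, so the arrays were close in scale. Signal is the normalized intensity of a probe set on a linear scale, as deposited. For β-actin, the signal of its 3′ control probe set over that of its 5′ one, which rises as RNA breaks down, was 6.997 on the first pre-βgal array, 3.64 on the first post-βgal array and 1.27 to 1.62 on the other 6. Summed signal of 7 hepatocyte markers was 87721 to 106688 over all arrays. The 6 neutrophil markers tested summed to 3572 and 2931 on the pre-βgal arrays, 4645 and 5473 on the post-βgal arrays, 1715 and 1567 on the pre-A20 arrays and 2357 and 2046 on the post-A20 arrays. Averaged over both times, 3 of these 6 passed the test as lower with A20, namely S100a8, S100a9 and Csf3r, and none was at a signal of 0 on any array. Kupffer cell and macrophage markers (7 of 7 tested) summed to 5969 to 6499.5, 4452 to 5655, 3555 to 3785 and 5435 to 5855 in the same order of groups. The part of these cells in the P450 values was not tested. In bulk RNA, fewer cells of a type and less RNA per cell cannot be told apart.

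Summed P450 signal, most of it from bright probe sets, was lower after resection within each transgene and higher with A20 at each time. The summed signal of the 61 probe sets was 91612 and 102132 on the pre-βgal arrays and 72917 and 66481 on the post-βgal arrays. On the pre-A20 arrays it was 127674 and 125032, and on the post-A20 arrays 96468 and 89967. Both pre-A20 arrays were above all others and both post-βgal arrays below all others, while the pre-βgal and post-A20 arrays overlapped. The 20 members with a mean signal over 1000 made up 80348 of the 91612 on the first pre-βgal array. The median signal of the 61 did not follow the same order, with 397 and 438 on the pre-βgal, 331 and 333 on the post-βgal, 348 and 434 on the pre-A20 and 352 and 354 on the post-A20 arrays. The hepatocyte markers did not follow this order. The neutrophil markers were lowest on the pre-A20 and highest on the post-βgal arrays. Endothelial markers (5 tested) summed highest on the pre-A20 arrays (3085 and 3180) and were lower after resection with each transgene. They summed to 2798 and 2663 on the pre-βgal, 2448 and 1948 on the post-βgal and 2236 and 2334 on the post-A20 arrays. Stellate markers were highest on the pre-A20 arrays too, and T and NK cell, B cell and cholangiocyte markers were not.

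**Figure D1:**
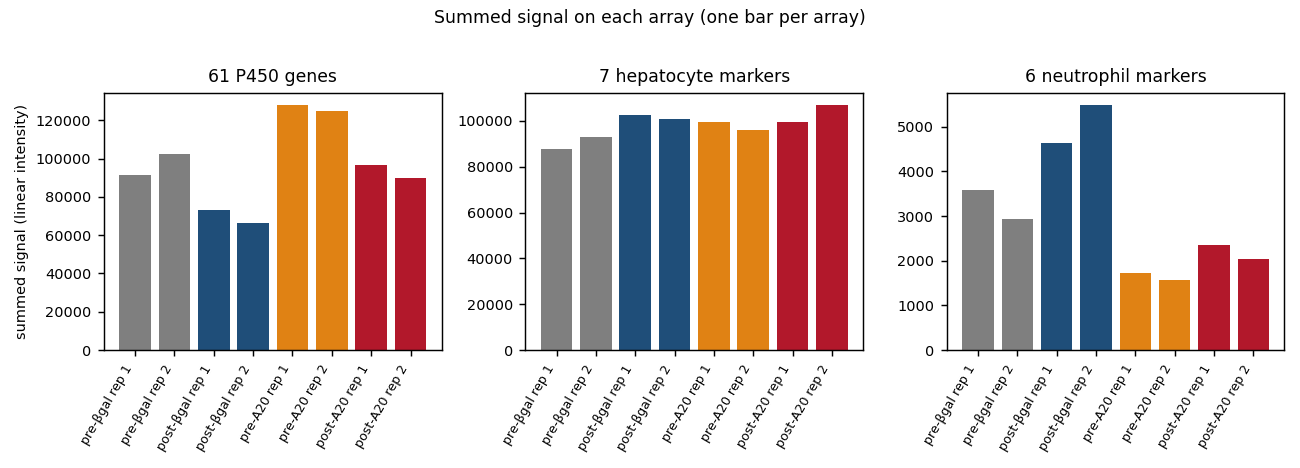
Summed signal on each array (linear intensity; 1 bar per array, coloured by group) of the 61 P450 genes, 7 hepatocyte markers and 6 neutrophil markers. The P450 sum runs from 66481 on a post-βgal array to 127674 on a pre-A20 array, while the hepatocyte sum stays between 87721 and 106688.

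The median differences were farthest from 0 in the bright probe sets. Of the 20 members with a mean signal over 1000, 19 of 20 were below 0 on the log2 scale after resection in the βgal livers and 19 of 20 in the A20 livers, with medians of −0.56 and −0.53. The exceptions were Cyp2a12 in the βgal livers (0.03) and Cyp2c39 in the A20 livers (0.68). With A20 against βgal, 17 of 20 were above 0 before resection and 18 of 20 after it, with medians of 0.42 and 0.57. Before resection the 3 below 0 were Cyp2c38, Cyp2c39 and Cyp2c70, and afterwards Cyp2c29 and Cyp2c70. Members whose probe sets were dimmer than 200 (17 genes) had medians of −0.03 and 0.05 with A20, before and after resection, and of −0.09 and −0.03 with resection, in βgal and A20 livers, and none of them passed the test. The 24 between 200 and 1000 had medians of 0.06 and 0.16 with A20 and −0.28 and −0.17 with resection. A probe set's brightness depends on its probes as well as on the transcript, so it was used to split the members and not to rank them.

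Without any one of the 8 arrays, 18 to 20 of the 20 bright members stayed below 0 after resection in the βgal livers (median −0.84 to −0.46) and 16 to 19 in the A20 livers (−0.53 to −0.38). For A20 against βgal, 17 to 19 stayed above 0 at both times, with medians of 0.36 to 0.46 before and 0.43 to 0.66 after resection. Without both βgal arrays of high β-actin ratio, the medians were 0.36 for A20 before resection, 0.64 for A20 after it and −0.86 for the βgal livers with resection. Each test of a single gene rested on 2 arrays a group.

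In 15 of the 20 bright members both post-βgal arrays lay under both pre-βgal arrays, and in 0 above, against 30.2% and 24.8% of the 2581 genes of that brightness. The same held in 15 of 20 for the A20 livers, with 1 of 20 above (Cyp2c39), against 29.7% and 26.2%. With A20, both arrays were higher in 14 of 20 before resection and in 13 of 20 after it, against 25.8% and 31.6%, and lower in 0 and 1 (Cyp2c70), against 23.2% and 31.7%.

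**Figure D2:**
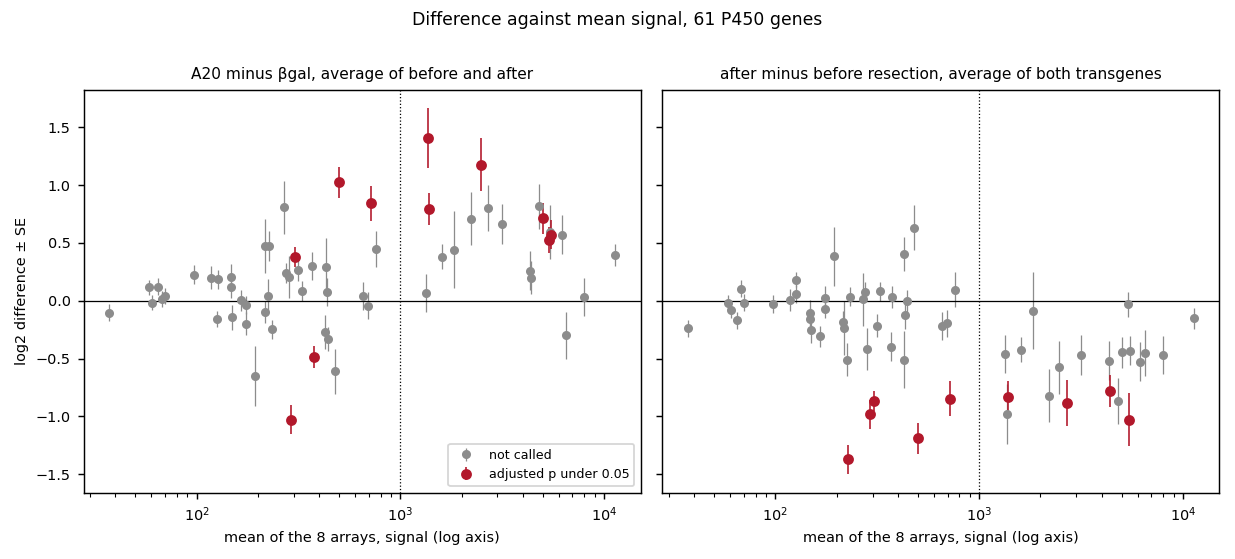
log2 difference (± SE from limma) of each of the 61 P450 genes against its mean signal over the 8 arrays (log axis); left, A20 minus βgal averaged over both times, right, after minus before resection averaged over both transgenes; red points passed an adjusted p of 0.05, and the dotted line marks a signal of 1000. To the right of that line 19 of 20 genes are above 0 on the left and 20 of 20 below 0 on the right.

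Genes with an adjusted p under 0.05 by limma over all 17790 genes are called. Resection in the βgal livers called 6 of the 61 members lower and none higher, against 0.748% of all genes called lower and 1.5% called higher. The median of the members was −0.31, beside −0.05 for all genes. Both post-βgal arrays were under both pre-βgal arrays in 34 members and above them in 4, against 33% and 20.4% of all genes. With the β-actin ratio as a covariate for RNA integrity, 18 members were called lower and 2 higher (Cyp20a1 and Cyp24a1).

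Cyp2g1, a steroid hydroxylase best known from the olfactory mucosa, had the largest fall. Its signal was 370.2 and 297 on the pre-βgal arrays, 72.3 and 84.4 on the post-βgal arrays, 309.8 and 336 on the pre-A20 arrays and 206 and 141 on the post-A20 arrays. The post-βgal arrays were the lowest of all and far from the others, and the post-A20 arrays lay between them and the arrays before resection. The log2 difference in the βgal livers was −1.88 ± 0.18 (SE), a 3.69-fold fall (adjusted p = 0.00583), and in the A20 livers −0.86 ± 0.18 (adjusted p = 0.0786).

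Cyp4f15, a member of the subfamily that inactivates leukotriene B4 by ω-hydroxylation, was lowest in the post-βgal livers too. Its probe set read 1786 and 1422 on the pre-βgal arrays, 638 and 509 on the post-βgal arrays, 1757 and 1845 on the pre-A20 arrays and 1424 and 1686 on the post-A20 arrays. The post-βgal pair was below all 6 other arrays, and the pre-A20 pair was above the post-A20 pair. It fell by 1.46 ± 0.20 in the βgal livers (adjusted p = 0.0183), while in the A20 livers the difference was −0.21 ± 0.20 (adjusted p = 0.665).

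Cyp2b9, a female-predominant steroid hydroxylase, was high in 1 group alone, with 651 and 564 on the pre-βgal arrays against 197 and 228 on the post-βgal arrays. The A20 livers gave 175 and 239 before and 157 and 122 after resection. Its log2 difference with resection was −1.45 ± 0.18 in βgal livers (adjusted p = 0.0151) and −0.52 ± 0.18 in A20 livers (adjusted p = 0.226).

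Cyp2c23, an arachidonic acid epoxygenase, was lower after resection with either transgene. It read 397 and 537 before and 203 and 177 after resection in the βgal livers, and 1013 and 868 before and 445 and 377 after in the A20 livers. The log2 differences were −1.22 ± 0.19 (adjusted p = 0.0264) and −1.16 ± 0.19 (adjusted p = 0.0387). No 2 groups overlapped except pre-βgal and post-A20.

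Cyp2u1, a fatty acid hydroxylase, was the other member called with both transgenes. Signals were 343 and 299 in pre-βgal, 199.99 and 187 in post-βgal, 494 and 468 in pre-A20 and 234 and 214 in post-A20 livers. Both pairs after resection were below both pairs before it. The differences were −0.68 ± 0.12 in the βgal livers (adjusted p = 0.0401) and −1.05 ± 0.12 in the A20 livers (adjusted p = 0.0155).

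Cyp2d13, which RefSeq lists as a transcribed pseudogene of the Cyp2d subfamily, completed the 6 in the βgal livers. It gave 662 and 784 on the pre-βgal arrays, 335 and 322 on the post-βgal arrays, 1283 and 933 on the pre-A20 arrays and 621 and 831 on the post-A20 arrays. The post-βgal pair was the lowest. The difference was −1.10 ± 0.21 in βgal livers (adjusted p = 0.0481) and −0.60 ± 0.21 in A20 livers (adjusted p = 0.239).

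In the A20 livers 2 members were thus called lower with resection and none higher, against 0.382% of all genes called lower and 0.63% called higher, and the median was −0.17 beside 0.02 for all genes. Arrays did not overlap in 29 members that were lower and 9 that were higher, against 22.3% and 29.4%. The RNA integrity covariate gave 8 calls, all lower. Cyp2f2, which oxidises naphthalene and is a periportal P450, had the largest difference there, with 9233 and 8274 before and 4496 and 3128 after resection, but did not pass (−1.22 ± 0.28, adjusted p = 0.0956). Its post-A20 arrays still overlapped the βgal arrays.

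The calls changed when single arrays were left out. An array outside a comparison enters its test mainly through the spread shared by all 4 groups. The 6 calls in the βgal livers became 0 without post-βgal replicate 1, 1 without post-βgal replicate 2, and 3 without any one A20 array, and the 2 calls in the A20 livers became 0 without any one A20 array, 1 without either post-βgal array and 4 without either pre-βgal array. Of the 55 named differences, 0 changed sign under the alternatives run. These were chosen as called, or as large with arrays that do not overlap, so a change of sign was unlikely from the start.

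Averaged over both transgenes, which uses all 8 arrays, 9 members were called lower with resection and none higher, against 1.93% and 2.83% of all genes. With the RNA integrity covariate 25 were called lower and 2 higher (Cyp17a1 and Cyp20a1). The 9 called without the covariate were Cyp2g1 (−1.37), Cyp2c23 (−1.19), Cyp1a2 (−1.03), Cyp2b9 (−0.98), Cyp2c50 (−0.89), Cyp2u1 (−0.87), Cyp2d13 (−0.85), Cyp4f15 (−0.84) and Cyp4v3 (−0.78). Cyp2g1, Cyp2c23 and Cyp2u1 remained called under each of the 22 alternative settings, leaving out any one array included. The count was 3 without post-A20 replicate 2, 4 without post-βgal replicate 2 or pre-A20 replicate 1, 5 without pre-A20 replicate 2, and 6 to 13 without any of the other 4.

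Cyp1a2, which oxidises arylamines and caffeine and is a marker of the central-vein zone, had 6787 and 4638 and then 3796 and 2178 in the βgal livers, and 9081 and 8716 and then 5231 and 3287 in the A20 livers. Within each transgene the arrays after resection were lower, while its replicates differed by more than 1000 units of signal in every group but pre-A20. The average difference was −1.03 ± 0.23 (adjusted p = 0.0487).

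Cyp4v3, the mouse counterpart of a fatty acid hydroxylase mutated in a human retinal disease, read 4924 and 5212 before and 3228 and 2878 after resection with βgal, and 6197 and 5863 before and 4107 and 2781 after with A20. In this probe set no array after resection reached any before it. Its average difference was −0.78 ± 0.14 (adjusted p = 0.0232). The other probe set of Cyp4v3, tested by limma beside all other probe sets with a symbol, gave −0.79 ± 0.27 and did not pass (adjusted p = 0.163). There the βgal arrays before and after resection overlapped.

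Cyp2c50, an epoxygenase of the central-vein zone whose promoter is printed above, had 2941 and 2618 and 1742 and 908 in the βgal livers before and after resection, and 4284 and 3892 and 2501 and 2732 in the A20 livers. The post-A20 and pre-βgal arrays overlapped. The average difference was −0.89 ± 0.20 (adjusted p = 0.0495), close to the threshold.

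**Figure D3:**
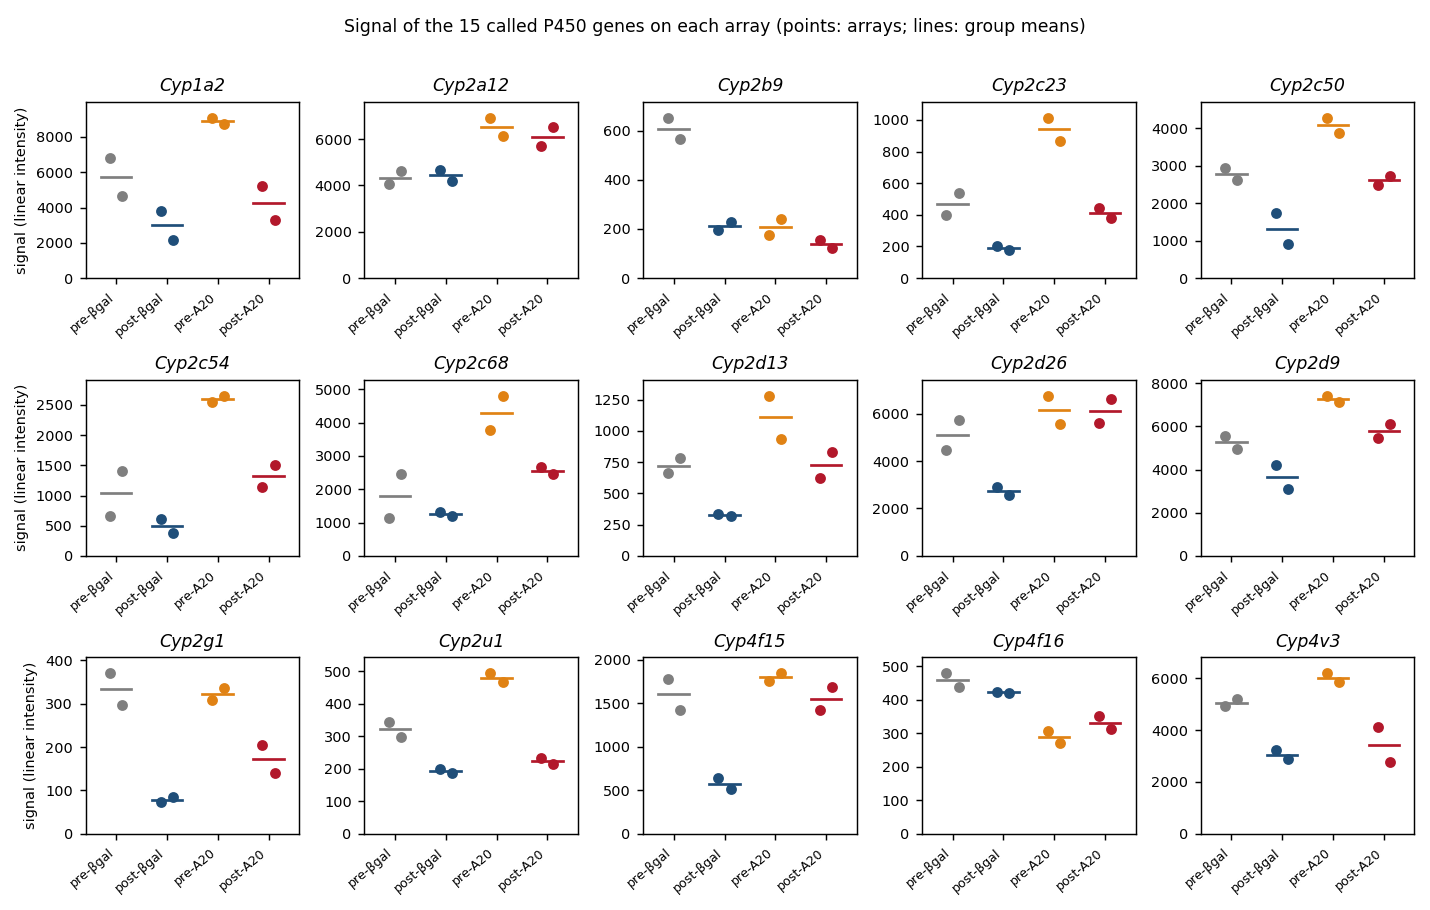
Signal (linear intensity, axis from 0) of the 15 P450 genes called in any comparison, with 1 point per array and a line at the mean of the 2 arrays of each group. By group means, most of the 15 are lowest in the post-βgal group, except Cyp2a12, Cyp2b9 and Cyp4f16. Most are highest in the pre-A20 group, except Cyp2b9, Cyp2g1 and Cyp4f16. Cyp2b9 is high in the pre-βgal group alone.

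A20 against βgal before resection called 1 member higher and 1 lower, against 0.714% and 1.78% of all genes. The members' median was 0.17 and that of all genes −0.03. Both pre-A20 arrays were above both pre-βgal arrays in 26 members and below them in 8, against 22.1% and 29.3%. Cyp2c23 was the one higher, by 1.00 ± 0.19 (adjusted p = 0.0456). Cyp2b9 was the one lower, 2.82-fold (−1.49 ± 0.18, adjusted p = 0.0191), with the signals given above. Both calls were lost when the first pre-βgal array was left out, and likewise for each pre-A20 array. Without pre-βgal replicate 2 there were 9 calls, and without either array of a group after resection Cyp2b9 alone was called. With the RNA integrity covariate 3 members were called higher and 5 lower.

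The largest rises that did not pass were in the Cyp2c and Cyp2f subfamilies. Cyp2c54, a close relative of Cyp2c50, read 667 and 1403 on the pre-βgal and 2545 and 2654 on the pre-A20 arrays (1.41 ± 0.36, adjusted p = 0.0858). Cyp2c68 read 1144 and 2463 and 3777 and 4811 (1.34 ± 0.33, adjusted p = 0.0764). For both, the pre-A20 arrays were above all 6 other arrays, and the first pre-βgal array, of high β-actin ratio, was below the second. Cyp2f2 read 3088 and 4894 and 9233 and 8274 (1.17 ± 0.28, adjusted p = 0.0729), and Cyp2r1, a vitamin D 25-hydroxylase, 120.3 and 245 and 284 and 463 (1.01 ± 0.32, adjusted p = 0.134). The largest differences below 0 after Cyp2b9 were Cyp2s1 (−0.69 ± 0.14, adjusted p = 0.0529), Cyp4f16 (−0.64 ± 0.13, adjusted p = 0.0547) and Cyp17a1 (−0.62 ± 0.28, adjusted p = 0.243).

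After resection 1 member was called, and it was higher, against 0.0956% of all genes called higher and 0.236% called lower. This was Cyp4f15, at 1424 and 1686 on the post-A20 arrays against 638 and 509 on the post-βgal arrays, a difference of 1.42 ± 0.20 or 2.67-fold (adjusted p = 0.0395). It was called without either pre-βgal array, and not without any one of the other 6 arrays, where its difference was 1.26 to 1.58. Without either pre-βgal array 8 members were called, all higher. Under the RNA integrity covariate 7 were called higher and 1 lower. The members' median was 0.21, beside 0.03 for all genes, and the arrays did not overlap in 33 members that were higher and 8 that were lower, against 33.7% and 26.4%.

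Cyp2c54 (1.41 ± 0.36, adjusted p = 0.125), Cyp2c39, a retinoic acid hydroxylase (1.21 ± 0.47, adjusted p = 0.224), and Cyp2d26 (1.15 ± 0.19, adjusted p = 0.0625) had the next largest differences. Cyp2d26 read 4459 and 5732 on the pre-βgal arrays, 2925 and 2560.2 on the post-βgal arrays, 6761 and 5560.4 on the pre-A20 arrays and 5621 and 6628 on the post-A20 arrays. The post-βgal pair was far under the other 3 groups, which overlapped. On the other side stood Cyp39a1, an oxysterol 7α-hydroxylase of bile acid synthesis, at 179.98 and 459.6 on the post-βgal and 141 and 143 on the post-A20 arrays (−0.95 ± 0.36, adjusted p = 0.217). The 2 post-βgal arrays disagree on it. Cyp17a1, the steroid 17α-hydroxylase (−0.60 ± 0.28), Cyp2b9 (−0.56 ± 0.18) and Cyp2c70, which makes muricholic acids in the mouse (−0.56 ± 0.29), were also below 0 and did not pass.

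**Figure D4:**
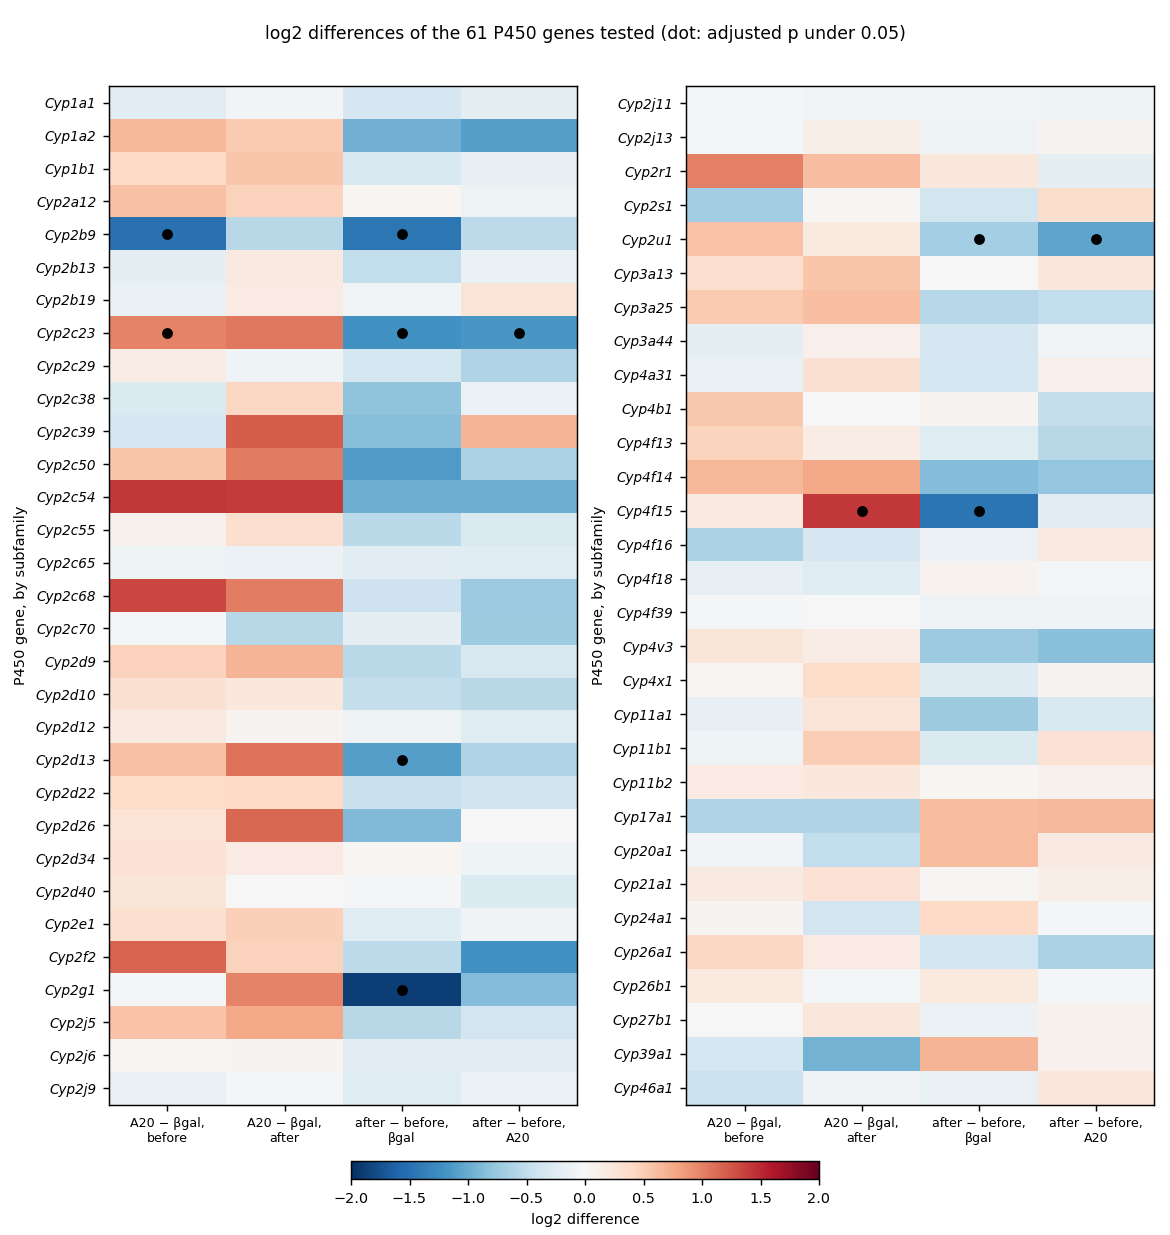
log2 difference of each of the 61 P450 genes tested (rows, by family and subfamily) in the 4 comparisons of 2 groups (columns; colour scale from −2, blue, to 2, red); a dot marks an adjusted p under 0.05 by limma. The resection columns are mostly blue for the Cyp1a to Cyp4f rows and the A20 columns mostly red, with Cyp2b9 blue in all 4 columns.

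Averaged over both times, A20 raised 9 members and lowered 2, against 2.08% and 3.31% of all genes. Those higher were Cyp2c54 (1.41), Cyp2c68 (1.18), Cyp2c23 (1.02), Cyp2d13 (0.84), Cyp4f15 (0.80), Cyp2d26 (0.72), Cyp2d9 (0.57), Cyp2a12 (0.53) and Cyp2u1 (0.38). Those lower were Cyp2b9 (−1.03) and Cyp4f16 (−0.49). Of the 9, 3 belong to the Cyp2c and 3 to the Cyp2d subfamily, which hold 10 and 8 of the 61 members tested. By brightness, 6 of the 9 were among the 20 members with a mean signal over 1000. Leaving out 1 array moved the 11 calls to between 0 (without either of post-βgal replicate 2 and post-A20 replicate 2) and 18 (without pre-βgal replicate 2). Dropping the first array of each group in turn left 5 (pre-βgal), 3 (post-βgal), 2 (pre-A20) and 1 (post-A20), and dropping the second pre-A20 array left 1. The RNA integrity covariate gave 13 higher and 3 lower.

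Cyp2a12, a steroid hydroxylase, had the average resection difference nearest to 0 among the 20 bright members. Its signal was 4051 and 4618 on the pre-βgal arrays, 4661 and 4202 on the post-βgal arrays, 6917 and 6141 on the pre-A20 arrays and 5692 and 6531 on the post-A20 arrays. All 4 A20 arrays were above all 4 βgal arrays. The A20 difference was 0.53 ± 0.11 (adjusted p = 0.0401), and that of resection −0.03 ± 0.11 (95% interval −0.28 to 0.22).

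Cyp2d9, the male testosterone 16α-hydroxylase, gave 5576 and 4964 on the pre-βgal arrays, 4215 and 3106 on the post-βgal arrays, 7425 and 7133 on the pre-A20 arrays and 5481 and 6127 on the post-A20 arrays. Its pre-A20 arrays were the highest and its post-βgal arrays the lowest, and the A20 difference was 0.57 ± 0.13 (adjusted p = 0.0445). Cyp4f16, of the leukotriene-hydroxylating subfamily, ran the other way, with 478 and 438 and 423 and 420.04 on the βgal arrays before and after resection and 308 and 271 and 352 and 311 on the A20 arrays. Here every A20 array was under every βgal array (−0.49 ± 0.10, adjusted p = 0.0348).

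Cyp2e1, the ethanol- and paracetamol-oxidising P450, had close replicates. It read 10100.4 and 11121 on the pre-βgal arrays, 9781 and 8292 on the post-βgal arrays, 13392 and 12999 on the pre-A20 arrays and 11957 and 13212 on the post-A20 arrays. All A20 arrays exceeded all βgal arrays, by 0.40 ± 0.09 on average, and the test missed the threshold (adjusted p = 0.052).

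Whether the response to resection differed between the transgenes was tested by the interaction, and limma called none of the 61 members and none of all genes. At an unadjusted p under 0.05 there were 6 members higher and 2 lower, against 9.97% and 5.71% of all genes. The smallest adjusted p among the members was 0.212. It belonged to Cyp4f15 (1.24 ± 0.28, 95% interval 0.60 to 1.88) and Cyp2g1 (1.02 ± 0.26, 0.42 to 1.62). Cyp2c39 had the largest interaction and the widest error (1.54 ± 0.67, adjusted p = 0.322). With the RNA integrity covariate the interaction called 2 members, Cyp2c39 and Cyp4f15, both higher, and by the bound of a 90% interval at 1.5-fold 1 member higher. In the fit without the covariate, a fall called with βgal and not with A20, as in Cyp4f15 and Cyp2g1, was not shown to differ between them.

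**Figure D5:**
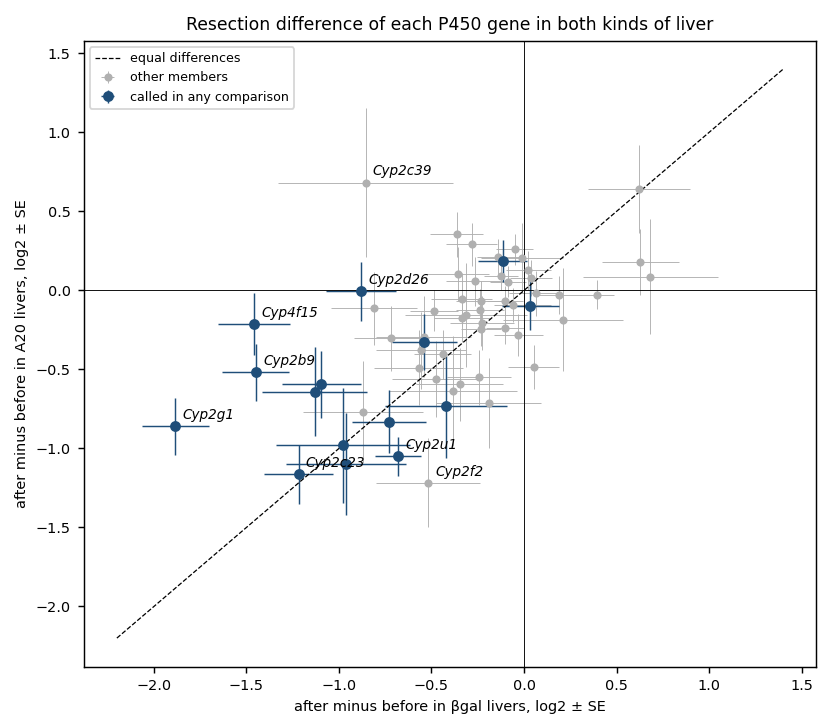
log2 difference after minus before resection of each P450 gene in βgal livers (horizontal) and A20 livers (vertical), each with its SE from limma; the dashed line marks equal differences, and blue points were called in any comparison. Cyp2g1, Cyp4f15, Cyp2b9 and Cyp2d26 lie above the line, Cyp2u1 and Cyp2f2 below it, and the interaction without the RNA integrity covariate called none of them.

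By subfamily, Cyp2c and Cyp2d had the most members. All 10 Cyp2c genes were below 0 with resection in the βgal livers (median −0.68) and 9 of 10 in the A20 livers (median −0.62). With A20, 6 of 10 were above 0 before resection and 7 of 10 after it (medians 0.12 and 0.72), and the range before resection ran from −0.33 (Cyp2c39) to 1.41 (Cyp2c54). Of the 8 Cyp2d genes, 8 were above 0 with A20 before resection (median 0.30) and 7 after it (median 0.31), and 7 and 8 were below 0 with resection (medians −0.46 and −0.30). The Cyp2j subfamily, which makes epoxides of arachidonic acid, was split by brightness: Cyp2j5 read 2222 and 3803, 1877 and 2070.3, 4398 and 4284 and 3420.5 and 3249 in pre-βgal, post-βgal, pre-A20 and post-A20 livers, a difference with A20 of 0.66 ± 0.17 (adjusted p = 0.0642), while Cyp2j6, Cyp2j9, Cyp2j11 and Cyp2j13 were within −0.10 and 0.04. Of the 6 Cyp4f genes, Cyp4f13, Cyp4f14 and Cyp4f15 were above 0 with A20 on average and Cyp4f16, Cyp4f18 and Cyp4f39 below it. The 46 members called in none of the comparisons ran from −0.65 (Cyp39a1) to 0.82 (Cyp2f2) with A20 on average, and from −0.87 (Cyp2f2) to 0.63 (Cyp17a1) with resection. The 3 Cyp3a genes tested gave no call, and Cyp3a25, a testosterone 6β-hydroxylase, was 0.57 ± 0.17 with A20 and −0.53 ± 0.17 with resection.

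The Cyp2c and Cyp2d genes each form a run of neighbours in RefSeq's order of genes (GRCm38.p6, neighbours at most 500 kb apart). In the run of 9 tested Cyp2c genes, 9 were below 0 with resection in βgal livers and 8 in A20 livers. In the run from Cyp2s1 to Cyp2f2, which holds 7 tested members of 5 subfamilies, neighbours parted with A20 before resection: Cyp2b9 was at −1.49 and Cyp2s1 at −0.69, Cyp2a12 at 0.59 and Cyp2f2 at 1.17. Closely related copies may share probes. Of the probe sets read, Affymetrix marks those of Cyp2c23, Cyp2c65 and Cyp4v3 as matching several transcripts (s_at) and that of Cyp11a1 as open to cross-hybridisation (x_at), so these 4 genes are uncertain.

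Lists of P450 genes by known role were read as counts. Of 8 genes of the central-vein zone, 6 were members tested (Cyp1a2, Cyp2c29, Cyp2c50, Cyp2c54, Cyp2e1 and Cyp3a25), and all 6 were below 0 with resection in both kinds of liver (medians −0.76 and −0.62). With A20 they were above 0 in 6 of 6 before and 5 of 6 after resection (medians 0.54 and 0.57), with Cyp2c29 the exception (−0.09). All 6 are among the 20 members with a mean signal over 1000, and 19 of those 20 were below 0 with resection in each kind of liver. Zone and signal were thus not told apart. On average Cyp2c54 passed as higher with A20, and Cyp1a2 and Cyp2c50 as lower after resection. Periportal Cyp2f2 had differences of the same signs, 0.82 ± 0.20 and −0.87 ± 0.20, and passed neither test (adjusted p = 0.0569 and 0.0526).

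Among the genes known to differ between the sexes, the male-biased list had 5 tested of 6 (Cyp2c70, Cyp2d40, Cyp2d9, Cyp2u1 and Cyp4a12a, of which the last has a longer symbol and is no member). All 5 were below 0 after resection with either transgene (medians −0.30 and −0.33), and Cyp2u1 passed in both. With A20, 4 of 5 were above 0 before resection (median 0.47) and 3 of 5 after it (median 0.20), and on average Cyp2d9 and Cyp2u1 passed as higher. The female-biased list had 7 tested of 13 (Cyp17a1, Cyp2b13, Cyp2b9, Cyp2c39, Cyp2g1, Cyp39a1 and Cyp3a44). All 7 were below 0 with A20 before resection (median −0.33), 1 of them called (Cyp2b9), and 4 of 7 were above 0 after it (median 0.10). With resection 5 of 7 were below 0 in the βgal livers (median −0.49), of which Cyp2b9 and Cyp2g1 passed, and 4 of 7 in the A20 livers (median −0.06).

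The 12 tested genes that act on steroids, vitamin D or retinoic acid gave no call in any of the 7 comparisons, and their medians lay between 0.03 and 0.19 in the 4 comparisons of 2 groups. Cyp17a1 read 398 and 501, 514 and 941, 318 and 256 and 429 and 482 in pre-βgal, post-βgal, pre-A20 and post-A20 livers and was above 0 with resection in both (0.62 and 0.64). Cyp24a1, the vitamin D 24-hydroxylase, was 0.39 ± 0.09 with resection in βgal livers (adjusted p = 0.0746), at signals of only 108 and 120.3 and 148 and 162, while its other probe set was −0.24 ± 0.09. Cyp26a1, which clears retinoic acid, varied between replicates, with 287 and 619 on the pre-βgal arrays. Cyp46a1, cholesterol 24-hydroxylase, was −0.42 ± 0.11 with A20 before resection (adjusted p = 0.0927). In the 16 genes of families 2j, 2u and 4 that act on fatty acids and eicosanoids, 14 were below 0 after resection in βgal and 12 in A20 livers (medians −0.24 and −0.16), with Cyp2u1 called in both and Cyp4f15 in βgal livers.

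The partners of P450 enzymes were tested beside them. Of 19 genes for electron donors and haem synthesis, 16 were tested. A20 before resection raised 2 of them and lowered none, against 0.714% and 1.78% of all genes. As a set the 16 were split, with 8 above and 8 below 0 and a median of −0.01, beside −0.03 for all genes. With A20 after resection none was called, and 11 of 16 were above 0 (median 0.20). Alas1, the rate-limiting enzyme of haem synthesis, had a mean signal of 1987 in pre-βgal and 6763 in pre-A20 livers (1.78 ± 0.21, adjusted p = 0.0189). Fdx1, the electron donor of mitochondrial P450 enzymes, had 2261 and 4610.2 (1.02 ± 0.20, adjusted p = 0.0474). Cyb5b, a cytochrome b5 of the mitochondrial outer membrane, was lower after resection on average (−0.80 ± 0.14, adjusted p = 0.0213).

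Of 22 regulators of P450 genes, 20 were tested. Dbp, a clock-controlled factor of the D-box, had means of 96.95, 313, 2422 and 337 in pre-βgal, post-βgal, pre-A20 and post-A20 livers. It was higher with A20 before resection (4.43 ± 0.39, adjusted p = 0.0182) and fell with resection in A20 livers (−2.85 ± 0.39, adjusted p = 0.0238). Hours of the day at collection are not given in the sources used here. Nr1i3, the constitutive androstane receptor, was higher with A20 after resection (2.05 ± 0.26, adjusted p = 0.0298), and Ppara, the fatty acid receptor, on average (1.24 ± 0.23, adjusted p = 0.0296). Nr0b2, a repressor induced by bile acids, fell with resection in βgal livers (−1.89 ± 0.37, adjusted p = 0.048). Over both transgenes Cebpa, a factor of mature hepatocytes, fell with resection (−1.20 ± 0.19, adjusted p = 0.0145) and Cebpd, an acute-phase factor, rose (1.02 ± 0.22, adjusted p = 0.0436). Hnf4a, whose word is printed above, was 0.07 ± 0.11 with A20 (adjusted p = 0.718) and 0.09 ± 0.11 with resection (adjusted p = 0.689).

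Second probe sets of a gene, tested beside all other probe sets with a symbol, added calls that the brighter probe set did not give. The dimmer one of Cyp2d13 read 185 and 246 on the pre-βgal arrays, 153 and 171 on the post-βgal arrays, 453 and 469.8 on the pre-A20 arrays and 222 and 205 on the post-A20 arrays, and was higher with A20 before resection (1.06 ± 0.15, adjusted p = 0.0276) and lower with resection in A20 livers (−1.06 ± 0.15, adjusted p = 0.0286). That of Cyp2j5 fell with resection in βgal livers (−1.23 ± 0.22, adjusted p = 0.0475), where the brighter one gave −0.56. That of Cyp2j6 fell with resection in A20 livers (−0.85 ± 0.12, adjusted p = 0.0332), where the brighter one gave −0.21. That of Cyp4f16 was lower with A20 before resection (−0.57 ± 0.09, adjusted p = 0.0372), beside −0.64 in the brighter one. Averaged over both times, the dimmer one of Cyp2j5 was higher with A20 (0.74 ± 0.16, adjusted p = 0.047), beside 0.66 in the brighter one. So was 1 dimmer one of Cyp11a1 (0.31 ± 0.07, adjusted p = 0.0477), beside 0.05 in the brightest and −0.005 in another. Averaged over both transgenes, resection lowered the dimmer ones of Cyp2j5 (−0.88 ± 0.16, adjusted p = 0.0276) and Cyp2j6 (−0.55 ± 0.09, adjusted p = 0.0187). The brighter ones gave −0.47 and −0.22. In that fit the brighter probe set of Cyp2d13 missed the threshold with resection in βgal livers (adjusted p = 0.0556) and that of Cyp2u1 with A20 on average (adjusted p = 0.0538). The dimmer one of Cyp2u1 gave 0.12 ± 0.07 with A20 on average (adjusted p = 0.3385). In the comparisons named, the probe sets of these 4 genes (Cyp2d13, Cyp2j5, Cyp2j6 and Cyp4f16) pointed the same way. Others did not: of the 14 members with several probe sets past the minimum, 7 had probe sets on both sides of 0 with resection in βgal livers (Cyp11a1, Cyp1b1, Cyp21a1, Cyp24a1, Cyp4a31, Cyp4f16 and Cyp4f18), 4 with resection in A20 livers, 5 with A20 before resection and 6 after it. In the interaction 5 did (Cyp24a1, Cyp2d13, Cyp2d22, Cyp2j6 and Cyp4f18). For Cyp2d13 it was 0.50 in the brighter probe set and −0.69 in the dimmer one. With resection in βgal livers these 2 probe sets gave −1.10 and −0.37, the latter with an adjusted p of 0.213.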

How the data were processed

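RNA of pooled mouse livers was hybridised to 8 Affymetrix arrays, and the replicate numbers do not tell which pools share mice. The authors deposited 1 table of normalized probe set intensities on a linear scale. Their methods name dChip with invariant set normalization and a model on perfect-match probes, and the sample records name MAS5. Which of them made the table, and on which genome build, the sources do not say. It was used without further scaling.

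Symbols came from the platform annotation (34945 probe sets with 1 symbol, 932 with several, left out). The members and lists were chosen with earlier results of these data known. log2 was taken after adding 16, probe sets needed a mean of 40 in at least 1 group (42703 passed), and each gene was read through its brightest probe set. limma 3.58.1 in R 4.3.3 fitted 1 mean per group with a variance trend over all probe sets passed (4 residual and 3.73 prior degrees of freedom), 7 comparisons, 2-sided, with Benjamini-Hochberg adjustment over 17790 genes. The fit was tested on simulated data. Named genes were all members called and the brightest of each subfamily. Named too were the 4 largest rises and falls per comparison of 2 groups whose arrays do not overlap. Genes of the lists were named in no fixed number. The number of arrays limits the precision, and p-values measure the spread between pools. Alternatives changed the normalization, filter, added value, variance model, probe sets, block, arrays, RNA integrity covariate and criterion.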

Additional observations from a re-analysis of the deposited data

Results flagged for a closer look

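With resection, 4 members were lower in the βgal livers and higher in the A20 livers, with no overlap of arrays within either, which is a difference between groups that the interaction did not call. These are 6.56% of the 61 members, and 7.92% of all 17790 genes did the same, so the members' share is not above that of all genes. The values are the interaction, the log2 difference in A20 livers minus that in βgal livers. It was 0.72 for Cyp2s1, a P450 of extrahepatic tissues, which read 541 and 577 and then 397 and 467 in βgal livers and 348 and 333 and then 467 and 414 in A20 livers (limma adjusted p = 0.225). It was 0.46 for Cyp4a31 (adjusted p = 0.38), 0.35 for Cyp46a1 (adjusted p = 0.337) and 0.30 for Cyp4f16 (adjusted p = 0.457). With resection in βgal livers the other probe sets of Cyp4a31 and Cyp4f16 lay on the other side of 0 from the ones read here.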

How the results depend on the processing

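Of 1217 alternative values of the 55 named results, 991 kept direction and side of the threshold, 187 no longer passed, 39 newly passed, and 0 changed sign. The named results were chosen by a call or by arrays that do not overlap, so the 0 was largely set by that choice. In the order A20 before, A20 after, resection in βgal livers, resection in A20 livers, A20 average and resection average, the members called were 2, 1, 6, 2, 11 and 9. Leaving out 1 array moved these to 0 to 9, 0 to 8, 0 to 5, 0 to 4, 0 to 18 and 3 to 13, and the interaction stayed at 0. With the RNA integrity covariate they were 8, 8, 20, 8, 16 and 27, and 2 for the interaction. Without both βgal arrays of high β-actin ratio there were 0 for A20 before, 4 for A20 after, 5 for resection in A20 livers and 15 for the resection average. From only the 4 arrays compared there were 0, 5, 0 and 4. By a limma bound at 1.5-fold there were 6, 7, 7, 5, 4 and 5, and 1 for the interaction. This bound was that of the 90% interval, met by any probe set of a gene. The study's methods used a 90% lower bound from dChip, which cannot be computed from the deposited values. Without a variance trend A20 before gave 5 and A20 after 2, with the mean of a gene's probe sets 5 and 4, and with each probe set on its own A20 before and resection in A20 livers gave 4 each. Arrays centred on the median gave 0 for A20 after. Variance moderated over the genes tested alone, chosen after seeing the data, gave 6 and 5 for A20 before and after. The cause was not tested. No scaling moved the median of all genes by over 0.1 on the log2 scale.

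The replicate numbers were not taken as pairing the arrays, since the labels do not say which pools share mice: deviations of same-numbered arrays correlated at 0.62 between pre-βgal and post-βgal but at −0.02 between pre-A20 and post-A20, over genes. A replicate block gave 2, 1, 5, 2, 13 and 9 calls and 0 for the interaction, and a replicate block within transgene 15 for resection in βgal livers (13 lower, and Cyp20a1 and Cyp24a1 higher), 6 in A20 livers (all lower), 19 for their average (17 lower, and Cyp17a1 and Cyp20a1 higher) and 0 for the interaction.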

Other observations

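Some probe sets of P450 genes name several genes and were in no comparison. The one of Cyp2a5 and Cyp2a4, coumarin and steroid hydroxylases of the central-vein zone, read 3427 and 4679.6 on the pre-βgal arrays, 2037 and 2602 on the post-βgal arrays, 7636 and 7033 on the pre-A20 arrays and 2108 and 1342 on the post-A20 arrays. Its pre-A20 arrays were above all others, and its post-βgal and post-A20 arrays overlapped. The one shared by Cyp4a31 and Cyp4a10, fatty acid ω-hydroxylases, read 412 and 2851 on the pre-βgal arrays, 1172 and 2164 on the post-βgal arrays, 643 and 406 on the pre-A20 arrays and 1447 and 3394 on the post-A20 arrays. Its pre-βgal arrays spanned nearly the whole range. The one of Cyp3a41b and Cyp3a41a read 142 and 116 on the pre-βgal arrays, 125 and 103 on the post-βgal arrays, 179 and 205 on the pre-A20 arrays and 129 and 116 on the post-A20 arrays.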
